A study of Mus musculus with 4 samples.

Results

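The genes described here make and export the ceramides of the skin barrier. They were chosen by name: Elovl4, Cers3 (also written Lass3), Degs1, Degs2, Cyp4f39, Ugcg, Smpd1, Abca12 and Nipal4. Each of the 9 has 1 transcript cluster on the array, meaning probes that tile its exons and are read as 1 value, and all 9 are among the 19938 genes with a named cluster. RNA was taken from the skin of C57BL/6 mice and hybridised to Affymetrix MoGene 1.0 ST arrays, 1 per sample. In the K5-Cre group, replicates 2 and 6 were both CflarF/F;K5-Cre;Tnfrsf1a+/-. The no K5-Cre group joined replicate 1, which was CflarF/+;Tnfrsf1a+/-, with replicate 3, which was CflarF/F;Tnfrsf1a+/-. Every sample thus carried a floxed allele of Cflar, the gene of the death receptor inhibitor cFLIP, and was heterozygous for Tnfrsf1a, the gene of the TNF receptor TNFR1. The keratin 5 promoter that drives Cre is active in basal keratinocytes and their progeny, so that other cells of the skin keep the floxed alleles. Age, sex, body site and the number of animals behind an array are not labelled, and p-values measure only the spread between these 4 samples.

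Epidermal barrier lipids are built in the upper living layers of the epidermis. Fatty acids are lengthened far beyond the usual chain length, hydroxylated at their far end and joined to a sphingoid base to form ceramides. These are capped with glucose or phosphocholine, packed into lamellar bodies, secreted, and trimmed back to ceramides outside the cell, where they stack into sheets between the corneocytes. Inherited loss of several of these genes causes ichthyosis in humans.

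The deposited log2 signals of the arrays had medians between 7.53 and 7.61. The 3 clusters named Cflar, the targeted gene, were each higher in the K5-Cre group, by 0.46 to 0.83 on the log2 scale, so the signal did not show the loss of the gene. The floxed exon is not labelled, and the direction of each comparison below rests on the labels. Skin markers were present on every array, with log2 signals from 12.80 to 13.20 for the basal keratin Krt5 and from 13.12 to 13.38 for the suprabasal keratin Krt10. Of 11255 genes tested with limma, 25.2% were higher and 38.8% lower in the K5-Cre group at an adjusted p of 0.05 (64% in either direction), and the median difference over these genes was −0.14. This background moves with the processing: with no filter on low signals 6145 genes were higher and 5567 lower (median 0.11), and without no K5-Cre replicate 1 the counts fell from 2836 and 4364 to 1463 and 2368.

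All 9 genes rose in the K5-Cre group, by 1.57-fold (Degs1) to 23.3-fold (Degs2), with a median log2 difference of 1.70. Both K5-Cre arrays lay above both no K5-Cre arrays for each of the 9, which was also so for 35.6% of the tested genes, while 50.4% lay wholly below. In bulk tissue, a larger share of cells of a type and more RNA per cell cannot be told apart. The adjusted p values ran from 6.51e-05 to 0.0119. In the ranking of all tested genes by their difference, the lowest of the 9 lay above 83.7% and their median member above 94.8%. The no K5-Cre arrays were close to each other, with gaps between 0.00090 and 0.40, and 6 of the 9 genes were higher in replicate 1. K5-Cre replicate 2 was above replicate 6 for all 9, by 0.26 (Degs2) to 0.73 (Abca12), where 44.6% of all tested genes were higher in replicate 2.

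**Figure D1:**
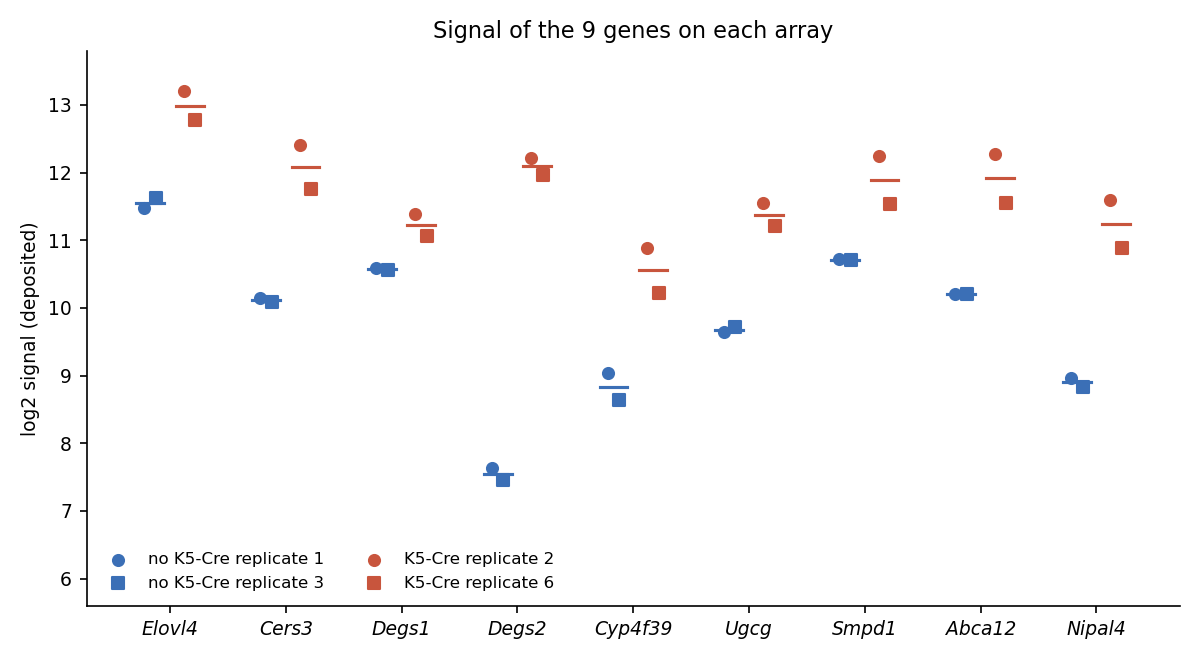
Deposited log2 signal (vertical axis) of the 9 genes on each of the 4 arrays, with a short line at the mean of each group (blue, no K5-Cre; red, K5-Cre). The red points lie above the blue points for every gene, Degs2 shows the widest gap, from 7.55 to 12.09, and the circle of K5-Cre replicate 2 is above the square of replicate 6 throughout.

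At the fatty acid step, Elovl4 encodes the elongase that makes the ultra-long chains of barrier ceramides. Its log2 signal was 11.48 and 11.62 in no K5-Cre replicates 1 and 3, and 13.20 and 12.78 in K5-Cre replicates 2 and 6. The groups were apart by 1.44 ± 0.16 (difference on the log2 scale ± moderated SE, n = 2 per group), a 2.72-fold rise with a 95% interval from 2.04 to 3.61 (adjusted p = 0.00145). Cyp4f39 is the mouse counterpart of human CYP4F22, which hydroxylates the far end of these chains. Its log2 signal was 9.03 and 8.63 without K5-Cre and 10.89 and 10.22 with it, the widest gap between no K5-Cre arrays among the 9. It rose 3.30-fold, by 1.72 ± 0.27 (adjusted p = 0.00408).

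Cers3 encodes the ceramide synthase that joins ultra-long acyl chains to the sphingoid base. The Cers3 log2 signal was 10.14 and 10.08 without K5-Cre and 12.41 and 11.75 with it, so that the groups lay further apart than the replicates of either. The rise was 3.91-fold (interval 2.61 to 5.86), or 1.97 ± 0.23 (adjusted p = 0.00164).

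The next enzymes finish the sphingoid base. Degs1 encodes the desaturase that turns dihydroceramide into ceramide in most tissues, and Degs2 encodes a relative that also adds a hydroxyl group, giving the phytoceramides that are abundant in epidermis and gut. Degs2 had the largest rise of the 9 and ranked 48 among all tested genes, whereas Degs1 had the smallest. The Degs2 log2 signal was 7.64 and 7.46 without K5-Cre and 12.22 and 11.96 with it, a rise of 4.55 ± 0.14 (adjusted p = 6.51e-05) and a fold interval from 18.2 to 29.9. Without K5-Cre its mean of 7.55 lay just under 7.61, the level that a gene's mean over the 4 arrays had to exceed to be tested, so Degs2 entered the test only through its K5-Cre signal. The other 8 genes lay above that level on all 4 arrays, and all 9 rose with no such filter too. The Degs1 log2 signal was 10.59 and 10.55 without K5-Cre and 11.39 and 11.06 with it, a rise of 0.65 ± 0.14 (adjusted p = 0.0119). With no K5-Cre replicate 1 left out Degs1 no longer passed (adjusted p = 0.093), nor with replicate 3 left out (adjusted p = 0.102).

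The unequal change of the 2 desaturase genes did not depend on any shift of a whole array, since their ratio is taken within each array. Degs2 minus Degs1 was −2.95 and −3.10 without K5-Cre and 0.83 and 0.91 with it. The change of 3.89 on the log2 scale is 14.9-fold, with SDs of 0.10 and 0.05 within the groups. An exact permutation test of 2 arrays against 2 gave the smallest two-sided p it can reach, 0.333.

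The promoters of Degs2 and Degs1 are printed because these related genes differed most in their rise, and that of Nipal4 because its rise was the second largest. Each window of 300 bases runs from 250 bases before to 50 after the RefSeq start, 5′ to 3′ along the gene, on build GRCm38.p6. They lie at chr12:108702257-108702556, minus strand, at chr1:182282146-182282445, minus strand and at chr11:46166310-46166609, minus strand. Capitals mark matches on either strand to the motifs spelled out after the sequences.
Degs2: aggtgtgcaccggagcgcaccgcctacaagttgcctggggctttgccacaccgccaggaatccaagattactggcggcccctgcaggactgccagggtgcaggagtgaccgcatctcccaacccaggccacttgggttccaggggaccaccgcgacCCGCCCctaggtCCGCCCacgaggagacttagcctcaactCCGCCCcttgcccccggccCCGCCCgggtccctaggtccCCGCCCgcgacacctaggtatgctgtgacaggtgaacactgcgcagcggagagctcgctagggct
Degs1: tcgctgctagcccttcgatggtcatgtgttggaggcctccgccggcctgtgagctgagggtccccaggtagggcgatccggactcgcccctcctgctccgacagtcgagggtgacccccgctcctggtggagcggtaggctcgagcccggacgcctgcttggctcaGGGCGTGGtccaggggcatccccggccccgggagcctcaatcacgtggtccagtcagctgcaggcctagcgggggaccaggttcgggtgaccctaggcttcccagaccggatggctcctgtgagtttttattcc
Nipal4: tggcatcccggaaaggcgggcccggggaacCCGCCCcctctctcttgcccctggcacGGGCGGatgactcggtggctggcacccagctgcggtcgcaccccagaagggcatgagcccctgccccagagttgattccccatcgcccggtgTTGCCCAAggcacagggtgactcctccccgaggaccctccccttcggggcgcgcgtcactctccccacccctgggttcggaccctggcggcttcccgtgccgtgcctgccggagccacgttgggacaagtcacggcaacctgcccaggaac

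Windows were found for all 9 genes. Of 10 motifs searched, the GC box of Sp1 (GGGCGG) was in 5 of the 9 (Elovl4, Degs2, Ugcg, Smpd1 and Nipal4) and in 35.7% of all 32851 promoter windows. The Degs2 window held 5 GC boxes, all written as CCGCCC on the gene's strand at positions from −94 to −15 relative to the start, and 2.71% of all windows held at least as many. Smpd1, with a rise of 1.18, held 4 (5.49% of all windows held at least as many), and Elovl4 and Ugcg held 2 each. Cers3, Cyp4f39 and Abca12, with rises from 1.70 to 1.97, held none. Any relation of box number to the rise was not tested. The Degs1 window held none, and its single match was to the KLF motif (GGGNGTGG, in 2 of the 9 and 17.6% of all). Degs1 and Degs2 were close in base composition, with 21 CpG dinucleotides each and 67.3% and 67.7% G and C. The Nipal4 window held 2 GC boxes and the single match to the C/EBP motif (TTGCNNAA, 10.8% of all). The CCAAT box (CCAAT, 37.4% of all) and the nuclear receptor motif (AGGTCA, 16.3%) were each in 2 of the 9 windows. No window held the TATA box (TATAAA, 13.6% of all), the AP-1 motif (TGANTCA, 7.81%), the grainyhead-like motif (AACNNGTT, 4.2%), the STAT motif (TTCNNNGAA, 8.3%) or the NF-kappaB motif (1.63%). CpG content ranged widely, from 6 dinucleotides (Abca12) and 7 (Cers3) to 53 (Ugcg), where the median window held 7.

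Of the genes that act on finished ceramides, Ugcg encodes the glucosylceramide synthase that caps them for transport. The Ugcg log2 signal was 9.64 and 9.72 without K5-Cre and 11.55 and 11.20 with it. It rose 3.24-fold, by 1.70 ± 0.15 (adjusted p = 0.000656). Smpd1 encodes acid sphingomyelinase, which frees ceramide from sphingomyelin. The Smpd1 log2 signal was 10.72 and 10.71 without K5-Cre and 12.24 and 11.54 with it, and the groups differed 2.26-fold, by 1.18 ± 0.24 (adjusted p = 0.00974). Its K5-Cre arrays were 0.70 apart, against 1.18 between the groups.

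Abca12 encodes the transporter that loads glucosylceramides into lamellar bodies. The Abca12 log2 signal was 10.21 on both no K5-Cre arrays and 12.28 and 11.55 with K5-Cre. Its rise was 3.26-fold (interval 2.10 to 5.06), or 1.70 ± 0.25 (adjusted p = 0.00334). Nipal4, also called ichthyin, encodes a membrane protein that is needed for the lipid barrier. The Nipal4 log2 signal was 8.96 and 8.84 without K5-Cre and 11.59 and 10.88 with it. It rose 5.05-fold, by 2.34 ± 0.25 (adjusted p = 0.00124), which placed it behind Degs2 alone among the 9.

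The authors' deposited table, which lists 1396 clusters at least 4-fold apart from no K5-Cre replicate 1 on any array, holds 3 of the 9 genes. In the authors' deposited table the linear signal of Degs2 (chromosome 12, 109928435 to 109940516, mm9) was 231 and 227 without K5-Cre and 4931 and 4420 with it. Cers3 (chromosome 7, 73888518 to 73966728, mm9) had linear signals of 1170 and 1146 against 6027 and 3454 in the authors' deposited table. Nipal4 (chromosome 11, 45961657 to 45979861, mm9) had 477 and 453 against 2582 and 1634 in the authors' deposited table. For Degs2, the authors' deposited table gives a fold of 21.3 for K5-Cre replicate 2 and 19.1 for replicate 6, both against no K5-Cre replicate 1. Abca12 is not among its clusters, although the 2 arrays K5-Cre replicate 2 and no K5-Cre replicate 1 were 2.07 apart in the log2 values analysed here. Both tables come from the same arrays, and why they differ was not tested.

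Markers of keratinocytes and of epithelial junctions also differed between the groups. Of 15 tested epithelial junction markers, 11 rose and 0 fell (median 0.88), and all 15, like the 9 lipid genes, had their higher K5-Cre signal in replicate 2. Of 8 suprabasal keratinocyte markers 4 rose and 1 fell (median 0.44), and of 8 basal markers 4 rose and 2 fell (median 0.24). Over all tested genes 25.2% rose and 38.8% fell. Replicate 2 was also the higher K5-Cre array for all 8 suprabasal markers and for 7 of the 8 basal markers. The summed linear signal of the 9 lipid genes was 10409 and 10470 in no K5-Cre replicates 1 and 3 and 40114 and 27999 in K5-Cre replicates 2 and 6, the order kept for each list, 3.26 times as high on average. The same sum rose 2.25 times for the junction markers, from 25042 and 23681 to 61370 and 48363, and 1.22 times for the suprabasal markers, from 42901 and 40634 to 56946 and 44793. For the basal markers it rose 1.39 times, from 19991 and 19799 to 29462 and 25660. The suprabasal sum is weighted to its brightest members, Krt1, Krt10 and Lor, which differed by 0.04, 0.01 and −0.10. Krtdap, Sbsn, Calml3 and Ivl rose by 0.84 to 1.28, and Flg2 fell by 1.24.

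Markers of the deeper skin fell where the lipid genes rose. The summed signals in brackets cover every gene of a list with a cluster, including those too dim to be tested. All 9 tested fibroblast markers fell (summed signal 47142 and 45276 without K5-Cre, 6951 and 7352 with it), as did all 6 adipocyte markers (11511 and 12134 against 1775 and 1747) and all 7 skeletal muscle markers (50418 and 46453 against 1962 and 2499). Of 8 endothelial markers 7 fell (9067 and 9329 against 2360 and 2860), and all 6 mast cell markers fell (18143 and 19052 against 2759 and 3825). All 7 tested neutrophil markers rose (570 and 561 against 26722 and 28890), as did all 9 macrophage markers (4083 and 4257 against 21951 and 32760). Of the sebaceous gland markers, 3 of 8 with a cluster were tested and 2 fell (4521 and 4732 against 2498 and 1771). Of 5 tested melanocyte markers, 1 rose and 1 fell (2563 and 2690 against 1904 and 2167). No marker has a zero on this log scale, and the part of these lists in the rise of the 9 genes was not tested. The scaling by keratinocyte markers described next is no such test, since the markers themselves changed unequally. Differences of the junction markers ran from −0.05 (Grhl2) to 3.24 (Dsg3).

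**Figure D2:**
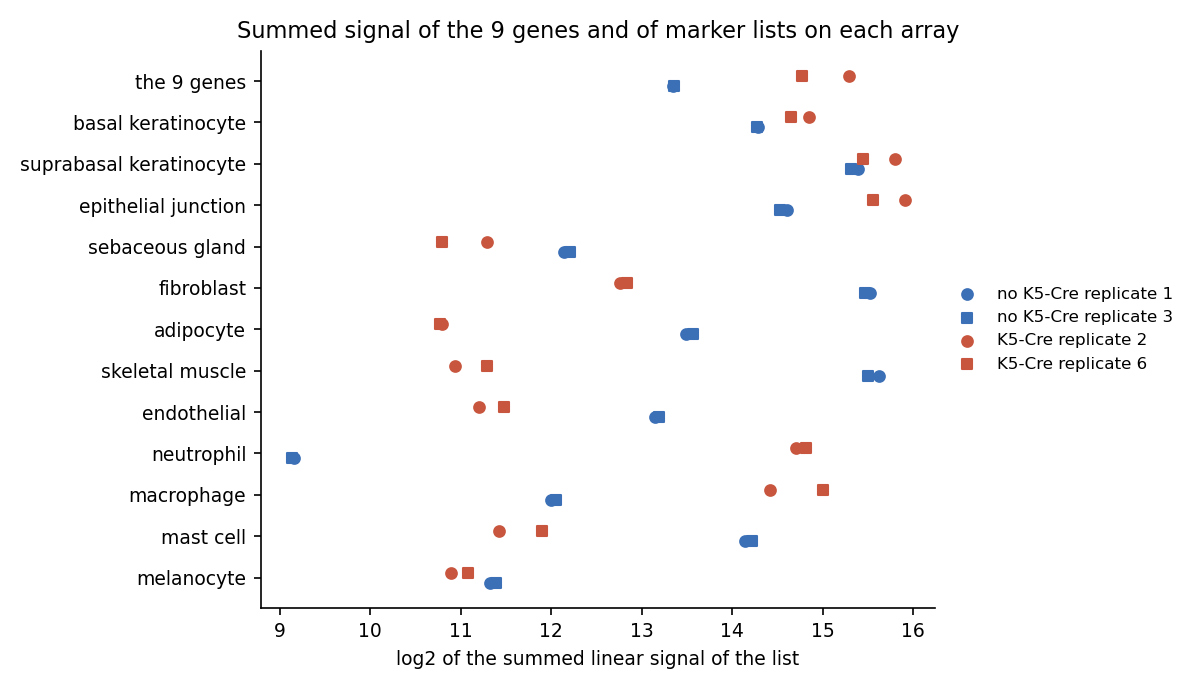
Log2 of the summed linear signal (horizontal axis) of the 9 genes and of 12 marker lists on each array (blue, no K5-Cre; red, K5-Cre). The 9 genes and the junction markers lie to the right in the K5-Cre arrays, fibroblast, adipocyte and skeletal muscle markers lie far to the left, and neutrophil markers lie far to the right.

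Shifting the arrays to a common level of keratinocyte markers takes the same amount off the difference of every tested gene, 1.005 for the junction mean. That the differences of all 9 genes were smaller or turned thus followed from the higher marker level of the K5-Cre arrays. How many passed depended on the markers used. With each array shifted to the same median of the junction markers, the differences ran from −0.22 (Degs1) to 3.67 (Degs2), with a median of 0.83, and 3 of the 9 (Degs2, Nipal4 and Cers3) passed, where 4.67% of all tested genes were higher against 25.2% as deposited. Cyp4f39, Abca12 and Ugcg then differed by 0.82 to 0.85 (adjusted p = 0.0682 to 0.0729), Elovl4 by 0.57 (adjusted p = 0.227) and Smpd1 by 0.30 (adjusted p = 0.518). With the mean of the junction markers, an alternative added after the values were seen, 6 of the 9 passed beside 5.71% of all tested genes, and the median was 0.70. The moderated SE of the 9 genes was 0.41 to 0.42 with the junction median and 0.26 to 0.28 with the junction mean, against 0.14 to 0.27 as deposited. Such a shift adds the error of the array's marker level to every gene. With arrays shifted to the same mean of the suprabasal markers, also added after the values were seen, the differences ran from 0.23 (Degs1) to 4.13 (Degs2), with a median of 1.29, and 8 of the 9 passed beside 8.53% of all tested genes. Degs1 was lower only under the junction scalings, by 0.22 with their median and by 0.35 with their mean, and neither passed (adjusted p = 0.639 and 0.222). Relative to the mean of the junction markers, the gap between K5-Cre replicates 2 and 6 ran from −0.17 to 0.30 for the 9 genes. This takes the markers' own gap of 0.43 off each deposited gap of 0.26 to 0.73, so narrowing for all 9 followed from the arithmetic.

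**Figure D3:**
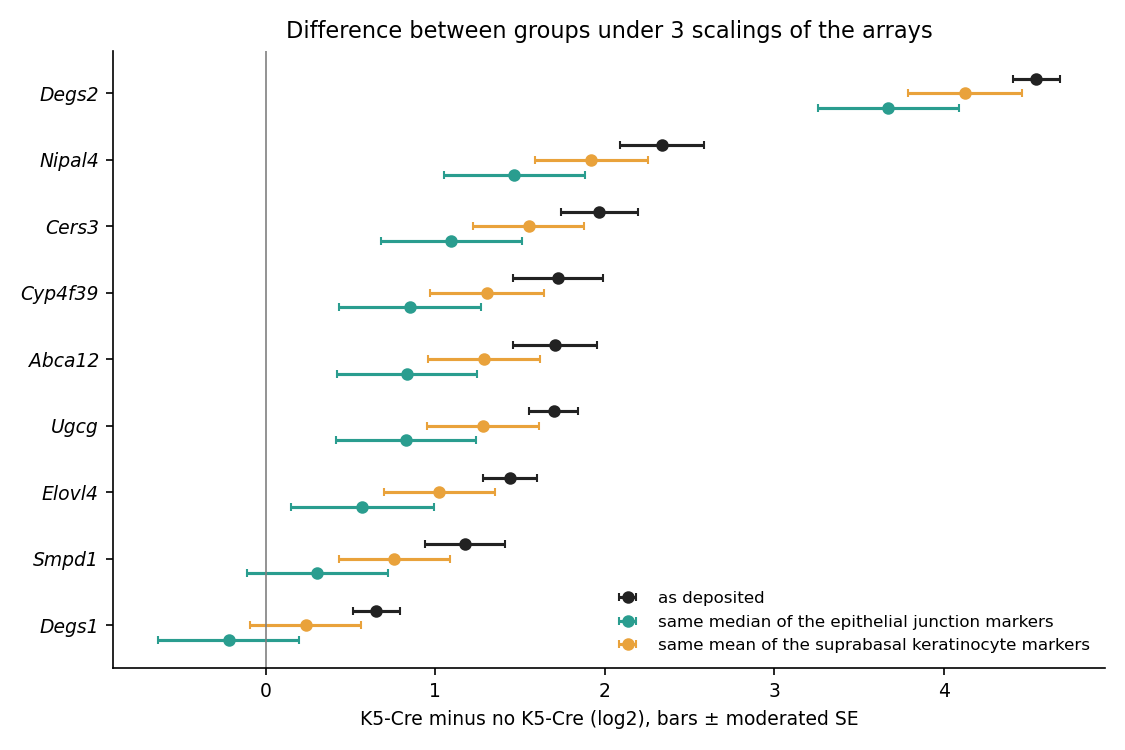
K5-Cre minus no K5-Cre difference (horizontal axis, log2, ± moderated SE, n = 2 per group) of the 9 genes as deposited (black), with arrays shifted to the same mean of the suprabasal markers (orange) and to the same median of the junction markers (green). Degs2 is 4.55, 4.13 and 3.67 on these scalings, and Degs1 is 0.65 as deposited and −0.22 on the green scaling.

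Among 71 other genes of the pathway, grouped by role, 66 had a named cluster and 60 were tested. Of these, 29 rose (48.3%) and 8 fell (13.3%), with a median of 0.47, beside 25.2% and 38.8% of all tested genes and their median of −0.14. Both counts fell when a no K5-Cre array was left out and rose when a K5-Cre array was left out. The counts over all tested genes moved the same way, and such fits leave 1 array in a group. With arrays shifted to the median of the junction markers, 7 of the 60 were higher and 12 lower, beside 4.67% and 54.3% of all tested genes. By the junction mean, 9 were higher and 26 lower, beside 5.71% and 75.6%. With the suprabasal mean, 16 were higher and 11 lower, beside 8.53% and 38.4%. Lower pathway genes outnumbered higher ones under both junction scalings, as lower genes did over the whole table. There 6110 were lower and 526 higher by the junction median, and 8513 lower and 643 higher by the mean. Of the 15 rises named in the role lists here, those of Smpd3, Ephx3, Sdr9c7 and Tgm1 passed under both junction scalings and those of Hacd4 and Gba2 under their mean alone, while the other 9 passed under neither. Acylceramide, lipid envelope and secretion genes held the highest median of the 5 role lists, 1.57, with 9 of 13 higher and 0 lower. Ephx3 encodes an epoxide hydrolase that acts on oxidised ceramide lipids. Its log2 signal was 8.85 and 8.94 without K5-Cre and 12.23 and 11.67 with it, an 8.34-fold rise (adjusted p = 0.00032). Sdr9c7, a dehydrogenase of the same route, rose by 2.35 ± 0.21, and Tgm1, a transglutaminase that builds the envelope, by 2.25 ± 0.14.

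**Figure D4:**
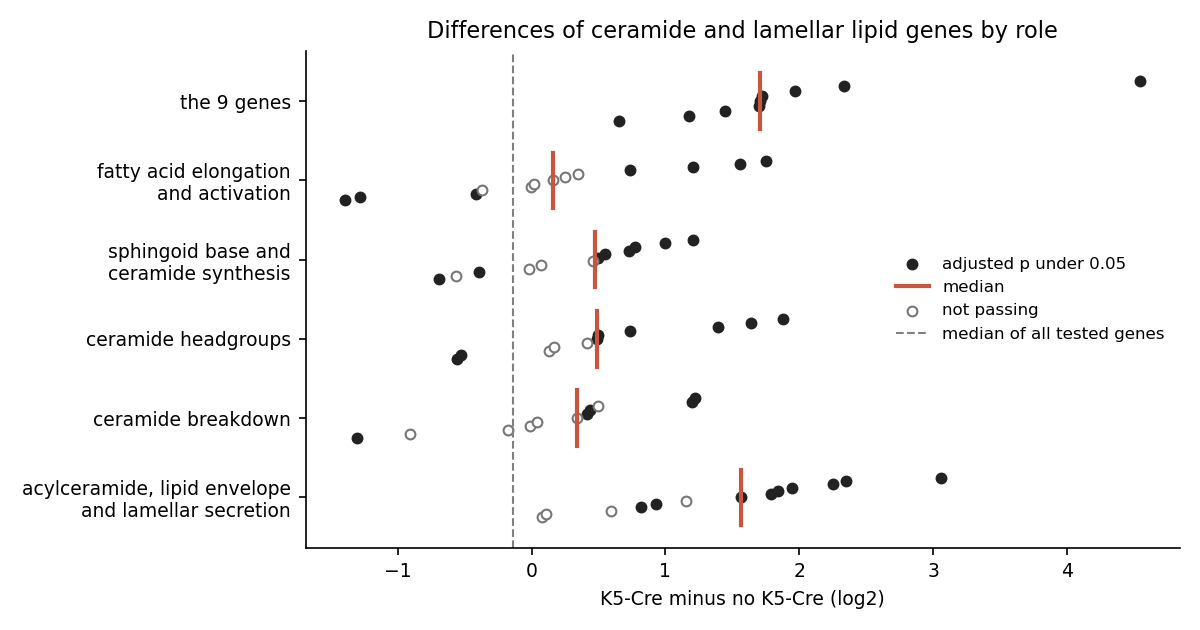
K5-Cre minus no K5-Cre difference (horizontal axis, log2) of the 9 genes and of 60 other tested pathway genes by role, filled where the adjusted p was under 0.05, with the median of each list in red and that of all tested genes dashed at −0.14. The 9 genes and the acylceramide list lie to the right, with medians of 1.70 and 1.57, while the other lists reach to both sides.

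Of 13 tested genes of fatty acid elongation and activation, 4 rose (30.8%) and 3 fell (23.1%), with a median of 0.16. Over all tested genes 25.2% rose and 38.8% fell. Hacd4, from a family of dehydratases of the elongation cycle, rose by 1.75 ± 0.34, and its log2 signal was 8.98 in K5-Cre replicate 2 and 10.01 in replicate 6, the opposite order to the 9 genes. Slc27a4, which takes up and activates long fatty acids, rose by 1.56 ± 0.16, and the elongase gene Elovl7 by 1.21 ± 0.16. By the junction median these were 0.68 (adjusted p = 0.14) and 0.34 (adjusted p = 0.471). The elongase gene Elovl6 fell by 1.39 ± 0.21 and the dehydratase gene Hacd1, known from muscle, by 1.28 ± 0.10. Tecr, the reductase of the cycle, fell by 0.41 ± 0.09 but did not pass with either no K5-Cre array left out (adjusted p = 0.177 and 0.181).

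The list of sphingoid base and ceramide synthesis had 6 of 12 higher and 2 lower (median 0.48). Sptlc3 and Sptlc2, which encode subunits of serine palmitoyltransferase, rose by 1.20 ± 0.25 and 0.78 ± 0.11. Cers6, a synthase gene for shorter acyl chains, rose by 0.99 ± 0.12, whereas the synthase gene Cers4 fell by 0.69 ± 0.12. Kdsr, the reductase of the sphingoid base, fell by 0.39 ± 0.13 (adjusted p = 0.0486). Kdsr did not pass with either no K5-Cre array left out (adjusted p = 0.171 and 0.338), after quantile normalization (adjusted p = 0.164) or after setting array medians equal (adjusted p = 0.0867). Leaving out no K5-Cre replicate 1 ended the calls of Sptlc2 (adjusted p = 0.0653) and Cers4 (adjusted p = 0.0568), and leaving out replicate 3 ended that of Sptlc3 (adjusted p = 0.0506). Sptlc2 turned to −0.10 and Cers6 to −0.01 under junction scalings, the first by their median and the second by their mean.

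Among genes of ceramide headgroups, 6 of 11 rose (54.5%) and 2 fell (18.2%), with a median of 0.49, beside 25.2% and 38.8% of all tested genes. Smpd3, which encodes a neutral sphingomyelinase, rose by 1.88 ± 0.30, the glucosylceramidase gene Gba2 by 1.64 ± 0.24 and the sphingomyelin synthase gene Sgms2 by 1.39 ± 0.14. Sgms2 was 0.52 by the junction median (adjusted p = 0.286). The neutral sphingomyelinase genes Smpd4 and Smpd2 fell by 0.56 ± 0.10 and 0.53 ± 0.12, and neither passed with a no K5-Cre array left out (adjusted p = 0.0839 to 0.145). Among genes of ceramide breakdown, 4 of 11 rose (36.4%) and 1 fell (9.09%), with a median of 0.34. Sgpp2 and Sgpl1, which act on sphingosine phosphate, rose by 1.22 ± 0.25 and 1.20 ± 0.11, and were 0.35 (adjusted p = 0.478) and 0.33 (adjusted p = 0.482) by the junction median. Sphk1, the kinase that makes it, rose by 0.43 ± 0.10 but did not pass with a no K5-Cre array left out (adjusted p = 0.172 and 0.161), and it was −0.44 under the median junction scaling. Acer2, an alkaline ceramidase gene, fell by 1.30 ± 0.12 in its brighter cluster, but its other, dimmer cluster was 0.44 higher, and the mean of both clusters fell by 0.43 (adjusted p = 0.0156).

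The tested genes nearest to Degs2 in their centred profile over the 4 arrays were Gsta4, Slpi, Sprr1a, Cd300lf and Sprr2h, at Euclidean distances from 0.16 to 0.29 on the log2 scale. Their rises were 19.6-fold to 25.6-fold, and rises close to that of Degs2 follow from this choice by nearness. Cd300lf alone of the 5 was lower in K5-Cre replicate 2 than in replicate 6. Gsta4 encodes a glutathione transferase, Slpi an antiprotease, Sprr1a and Sprr2h small proline-rich proteins of the cornified envelope, and Cd300lf a receptor of myeloid cells.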

How the data were processed

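Skin RNA of 4 mouse samples was measured on 1-colour arrays, 2 per group. The deposited series table holds log2 signals for 35557 clusters, and the sources used here do not state the authors' summarisation and normalization. The second table of the authors holds linear intensity values, called raw, with the ratio (fold) and signed log2 fold against no K5-Cre replicate 1, for clusters above the 20th percentile and at least 4-fold apart, per the file headers. No per-sample column was unused (0 columns). Of the clusters, 21789 have 1 gene symbol, 1621 several and 12147 none in the platform annotation. Of those with 1 symbol, 21698 matched a RefSeq gene (GRCm38.p6) by gene identifier and were given its current symbol, changed or not.

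Genes entered the test if the mean of their cluster with the highest mean exceeded 7.61, the median of the cluster means, and 11255 did. The 2 groups were fitted in limma 3.58.1 under R 4.3.3 (lmFit, then eBayes with a variance trend, 5.01 degrees of freedom). Two-sided p-values were adjusted by the Benjamini-Hochberg method across these genes. The code was tested on simulated data. The number of arrays limits the precision (median SE 0.12). Alternatives were the scaling, the filter, the variance trend, the choice of cluster and each array left out. The 9 genes, the lists and the rules were chosen with earlier results of these data known. The 3 largest rises and falls of each role list past the threshold, without overlap of the groups, were named. Genes without a named cluster were not analysed here.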

Additional observations from a re-analysis of the deposited data

How the results depend on the processing

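No paired analysis was possible because the groups share no replicate numbers. All 9 lipid genes passed in the same direction under quantile normalization, arrays shifted to the same median, both other filters, no variance trend and the mean of a gene's clusters. With 1 array left out, 8 to 9 rose and 0 fell, Degs1 being the gene that was lost, and Degs2 minus Degs1 ranged from 3.82 to 3.97. The lone array of a group was then assumed to vary like the pair. With arrays shifted to the same median of the junction markers 3 of the 9 rose, with their mean 6, and with the mean of the suprabasal markers 8. Such a shift gives every gene a common error, so these counts are not on the footing of the others. The other pathway genes higher were 7, 9 and 16 under these 3 scalings, and 26 were lower with the mean of the junction markers. With an array left out they ranged from 17 to 42 higher and from 3 to 14 lower. Over the whole table, higher genes numbered 526, 643 and 960 under these 3 scalings (8513 were lower with the mean of the junction markers), 6145 with no filter (5567 lower) and 4851 with a filter at the 25th percentile, where more genes were tested. They ranged from 1463 to 3716 higher and from 2368 to 5454 lower with an array left out. Signs turned under the junction scalings, by median and mean, for Degs1 (−0.22 and −0.35), Sptlc2 (−0.10 and −0.23) and Sphk1 (−0.44 and −0.57), and by mean for Cers6 (−0.0102). Signal over background was not assessed, which limits folds from low levels such as that of Degs2.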

Other observations

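Of the pathway genes, 6 lay under the level needed to be tested and were fitted without that filter. Lipn, a lipase gene of the upper epidermis, had mean log2 signals of 6.75 without K5-Cre and 8.01 with it, a rise of 1.26 ± 0.30 (adjusted p = 0.0151). Sptssb, a small subunit gene of serine palmitoyltransferase, rose by 0.41 ± 0.13 (adjusted p = 0.0373) from a mean of 5.21. Fa2h, which hydroxylates fatty acids next to their acid group, differed by 0.07 ± 0.09 and did not pass (adjusted p = 0.532). The elongase genes Elovl2 and Elovl3 and the galactosylceramide synthase gene Ugt8a differed by 0.25, 0.11 and 0.05 and did not pass either.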
